A study of Gallus gallus with 8 samples.

Results

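Genes were examined whose level in heterochronic grafts of chick wing mesoderm lay apart from normal tissue of both stages with which the grafts can be compared. A gene belonged to this set when both graft libraries (HH24g) were above, or both were below, all 6 libraries of the stages HH24 and HH27. Of 9062 genes that passed a filter on low counts, 804 met this rule (8.87%): both grafts were higher in 509 (5.62%) and lower in 295 (3.26%). The rule looks at the measured levels themselves, so belonging to the set is a description. Any pair of the 8 libraries would lie at an end of the order in some genes without a difference between groups. That share was not estimated here, so the 804 genes are not taken as a set of changed genes. The test was a separate fit across all 9062 genes of HH24g against the mean of HH24 and HH27, in which each stage had equal weight. It used the same 8 libraries as the rule, so it is not independent of it, and its p-values measure the spread between these libraries only.

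The study placed young wing mesoderm in an older wing to ask which genes follow the age of the cells and which follow their surroundings. HH24g (2 libraries) was distal mesoderm of HH20 CMV-GFP wing buds, a line in which a viral promoter drives green fluorescent protein in all cells. A strip of 150 µm was freed of its epithelium and cut into cubes, which were placed under the apical ectodermal ridge, the thickened epithelium at the wing tip, in the mid-distal region of the wing. The hosts were wild type at HH24, and grafts were taken after 24 h. HH24 (3 libraries) was untreated wild type distal wing mesenchyme of the age of the grafted cells. HH27 (3 libraries) was untreated wild type distal wing mesenchyme of the host's final stage, taken from the opposite, non-grafted wing of the hosts. All eggs were kept at 37 °C, and the tissue of several embryos was pooled for each library. The grafts differ from all 6 stage libraries in the operation, in any change of developmental pace after it, in the donor line with its transgene and in the position from which and into which tissue was moved. These differences cannot be told apart in this design, and an ungrafted CMV-GFP sample or a graft between equal stages was not analysed here.

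The apical ridge secretes Fgf proteins, and the distal limb mesenchyme below it expresses FGF10 and feedback inhibitors of the Sprouty and dual specificity phosphatase families. Position is recorded by transcription factors: the 5′ HOXD genes and HAND2 mark posterior and distal cells, HOXA13 the future hand, and TALE homeodomain genes such as the PBX and MEIS families proximal cells. Mesenchyme that leaves the distal zone forms cartilage, or the tendon and the connective tissue around muscle, which express SCX, MKX, OSR2 and fibrillar matrix genes.

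Library depth limits these comparisons. The tables gave 1697272 to 5095662 estimated reads per library, of which 61.6% and 67.6% fell on named genes in HH24g, 45.5% and 53.3% in HH24 replicates 1 and 3, and 51.9% to 66.2% in HH27. HH24 replicate 2 stood apart, with 9.24% of reads on named genes and 94.4% on its 6 most abundant transcripts. After scaling by trimmed mean of M-values (TMM), its effective size was 128271 reads, against 934614 to 3849969 in the other libraries, so that 1 read in it was worth 7.80 CPM, the unit of all levels below (TMM-scaled), against 0.260 to 1.07 CPM elsewhere. These are bulk samples, in which fewer cells of a type and less RNA per cell cannot be told apart. A zero in HH24 replicate 2 therefore carries little information, and each call below is given with the libraries whose removal ended it.

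Across all genes, HH24g differed from the mean of both stages for 34 genes (0.375% of those tested), with a Benjamini-Hochberg adjusted p under 0.05 in limma voom and a difference of more than 2-fold. Of these, 25 were higher in grafts (0.276%) and 9 were lower (0.0993%). Most of the called genes, 32 of 34, were among the 804 genes outside the stage range: 23 higher and 9 lower. Calls made up 3.98% of the 804 genes, and the remaining 772 were not called. Without a fold limit, 61 genes had an adjusted p under 0.05 (0.673%), 56 of them outside the range, and 1214 had an unadjusted p under 0.05, against 453 by chance. The median log2 difference of all genes was 0.01. The plot of both comparisons shows the 32 genes in the quadrants where grafts were above both stages or below both.

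**Figure D1:**
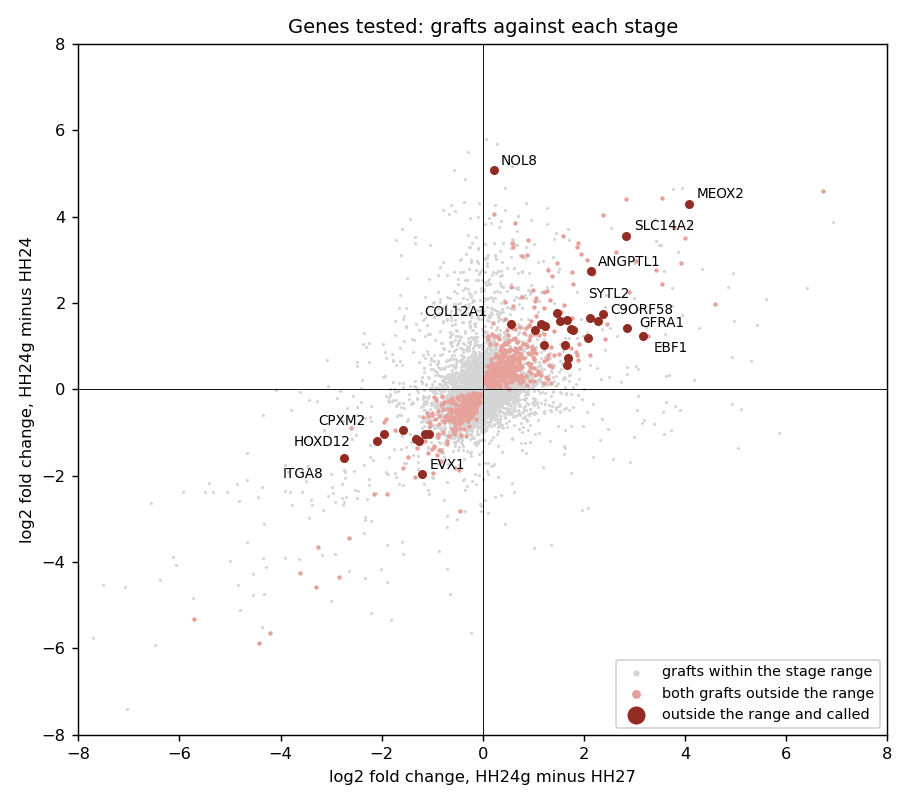
Log2 fold change of HH24g minus HH27 (x axis) and HH24g minus HH24 (y axis) for the 9062 genes tested; both axes use the same 2 graft libraries. Light red points are the 804 genes with both grafts outside the range of all 6 stage libraries, and dark red points the 32 of these that were called, of which MEOX2 lies far to the upper right and ITGA8 to the lower left, while NOL8 sits near 0 on the x axis.

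Against each stage separately the evidence was weaker. HH24g differed from HH24 for 1 gene (0.011%), from HH27 for 155 genes (1.71%), and HH27 differed from HH24 for 97 genes (1.07%). Of the 32 genes, 29 were also called against HH27, and 1 was called against HH24, the matrix gene COL12A1. Their log2 difference from HH24 was larger than 2-fold in 29 of 32 and from HH27 in 30 of 32, and the unadjusted p was under 0.05 in 31 of 32 in either comparison, while the adjusted p against HH24 ranged over 0.0234 to 0.454. No gene was called against both stages by limma voom: COL12A1 had an adjusted p under 0.05 in both but was less than 2-fold above HH27, and 81 genes, 62 of them outside the range, passed the fold limit with an unadjusted p under 0.05 in both. With adjusted p under 0.05 and the fold limit in both comparisons, edgeR's quasi-likelihood test called 5 genes (FAP, ITGA8, MEOX2, MXRA5 and RASL11B). DESeq2 called 32 genes in this way. They are not the same set as the 32 called genes above, and HTT, PDE5A, UACA and WWC3 among them were within the stage range. The comparisons share the 2 graft libraries. The nearest stage mean was that of HH24 for 22 of the 32 called genes and that of HH27 for 10. Over all 804 genes outside the range it was that of HH24 for 243 and that of HH27 for 561. These are means of CPM, so a 0 or a few reads in the shallow HH24 replicate 2 shift that of HH24. A tie was counted as HH27 for higher genes. The shares are therefore not compared.

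**Figure D2:**
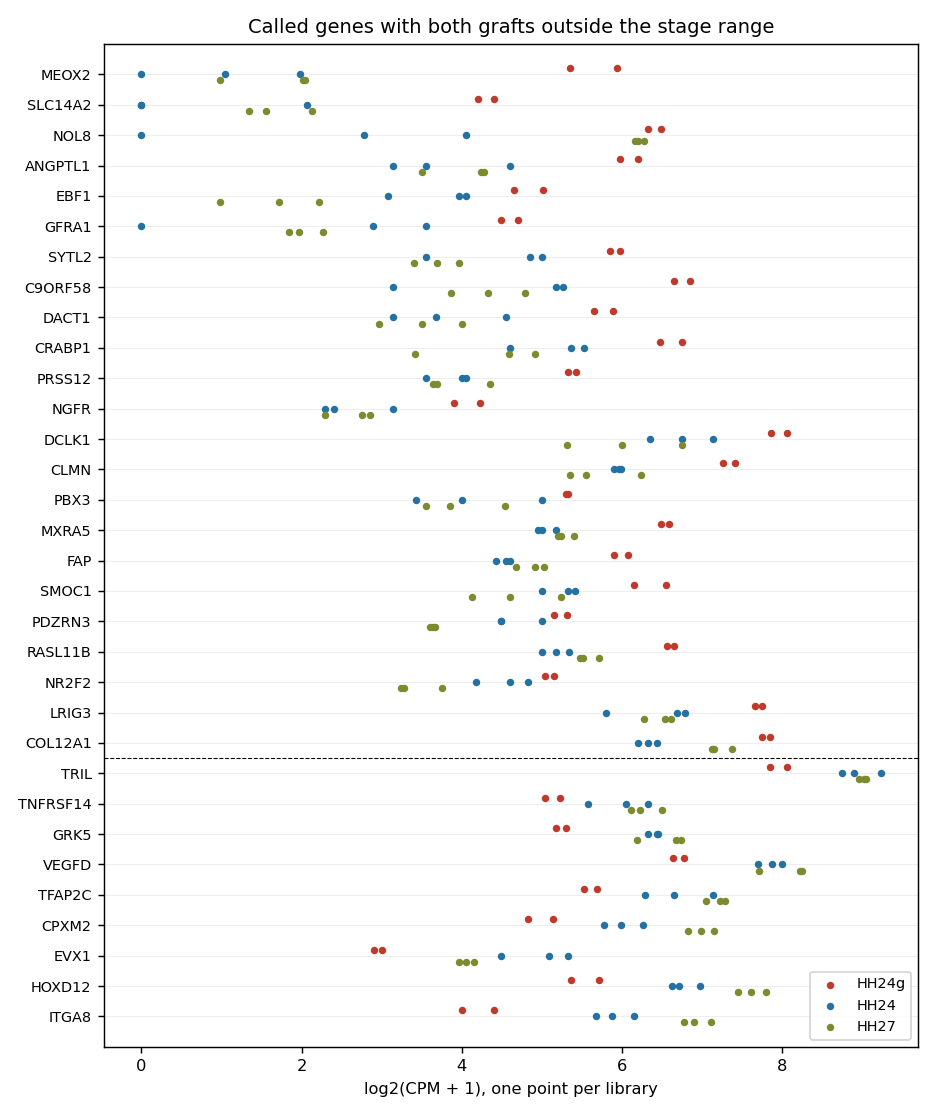
Log2(CPM + 1) in each library for the 32 called genes with both grafts outside the stage range, ordered by log2 fold change; red points are the 2 HH24g libraries, blue the 3 HH24 and green the 3 HH27 libraries, and the dashed line parts the 23 higher genes from the 9 lower ones. The space between grafts and stages is wide in MEOX2, ANGPTL1 and MXRA5 and narrow in NOL8 and PDZRN3.

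Among the 23 called higher genes were 4 transcription factors, MEOX2, EBF1, PBX3 and NR2F2. MEOX2, a homeobox gene needed in the mouse for normal limb muscle, had 39.9 and 60.5 CPM in the HH24g libraries, against 1.07, 0 and 2.93 CPM in HH24 and 3.07, 0.971 and 3.12 CPM in HH27. These values rest on 80 and 198 reads in HH24g, 1, 0 and 3 in HH24 and 8, 1 and 12 in HH27, and the lower graft library was 12.8-fold above the highest stage library. Its log2 difference from the mean of both stages was 4.19 ± 0.59 (SE, adjusted p = 0.0222), with 4.31 ± 1.03 against HH24 (adjusted p = 0.164) and 4.08 ± 0.52 against HH27 (adjusted p = 0.00474). The level in HH24 was close to the floor that 1 read sets, so the size of the fold is uncertain. Each of 8 further fits left out 1 library. MEOX2 was not called when HH24 replicate 1, 2 or 3 or HH27 replicate 1 or 3 was left out. MEOX2 had log2 fold changes of 3.86 to 4.46 over the 8 fits, with adjusted p up to 0.105.

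EBF1, a helix-loop-helix factor of B cells and of mesenchymal lineages, had 31.4 and 24.1 CPM in the HH24g libraries, against 7.49, 15.6 and 14.7 CPM in HH24 and 2.3, 0.971 and 3.64 CPM in HH27. The grafts were above the highest HH24 library by 1.55-fold and HH27 was the lowest group. The log2 difference was 2.20 ± 0.31 (SE, adjusted p = 0.0223), and the call was lost when HH24g replicate 1, HH24 replicate 1 or 2 or HH27 replicate 1 or 3 was left out. EBF1 had log2 fold changes of 1.99 to 2.44 over the 8 fits, with adjusted p up to 0.0760. PBX3, a TALE homeodomain partner of Hox proteins, had 38.4 and 39.1 CPM in the HH24g libraries, against 15, 31.2 and 9.78 CPM in HH24 and 10.7, 22.3 and 13.5 CPM in HH27. Grafts exceeded the highest stage library, the shallow HH24 replicate 2, by 1.23-fold, with a log2 difference of 1.56 ± 0.22 (SE, adjusted p = 0.0223). PBX3 was no longer called when HH24g replicate 1 or 2 or HH24 replicate 1, 2 or 3 was left out. PBX3 had log2 fold changes of 1.37 to 1.65 over the 8 fits, with adjusted p up to 0.133.

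NR2F2 (COUP-TFII), an orphan nuclear receptor that specifies veins in the mouse, had 31.9 and 34.5 CPM in the HH24g libraries, against 17.1, 23.4 and 27.4 CPM in HH24 and 8.43, 8.74 and 12.5 CPM in HH27. The grafts were 1.17-fold above the highest HH24 library and further above HH27, with a log2 difference of 1.12 ± 0.19 (SE, adjusted p = 0.0466). Against HH24 alone the difference was 0.58 ± 0.26 (adjusted p = 0.454), so that the distance from HH27 carried most of the value. Its call held in the fit without HH27 replicate 3 and was lost when HH24g replicate 1 or 2, HH24 replicate 1, 2 or 3 or HH27 replicate 1 or 2 was left out. NR2F2 had log2 fold changes of 0.97 to 1.27 over the 8 fits, with adjusted p up to 0.215.

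The list of tendon and muscle connective tissue regulators, 11 genes tested, held 6 genes with both grafts above the stage range (EBF1, MEOX2, SCX, MKX, OSR2 and PRRX1) and 0 below it; EBF1 and MEOX2 were called. Of all genes, 5.62% were above the range, and the list median was 0.58 on the log2 scale, beside 0.01 for all genes. This list and those below were chosen with earlier results of these data known. Their counts and medians are therefore descriptions and give no support of their own. Of the list, 8 genes had a positive difference; TWIST1 (log2 difference -0.42 ± 0.10 SE, adjusted p = 0.124), PRRX2 (log2 difference -0.34 ± 0.14 SE, adjusted p = 0.346) and TCF7L2 (log2 difference -0.10 ± 0.40 SE, adjusted p = 0.945) had negative ones within the range. SCX, the marker of tendon progenitors, had 29.9 and 25.4 CPM in the HH24g libraries, against 16, 23.4 and 12.7 CPM in HH24 and 11.5, 7.77 and 5.45 CPM in HH27. Both grafts lay above all stage libraries, but the log2 difference of 1.35 ± 0.25 (SE, adjusted p = 0.0502) fell just short of the threshold. MKX, a tendon homeobox gene, was measured at 13.5 and 11 CPM in HH24g, against 0 to 7.8 CPM in the 6 stage libraries (log2 difference 1.79 ± 0.44 SE, adjusted p = 0.120), and OSR2, a zinc finger gene of joint and connective tissue, at 6.99 and 8.55 CPM in HH24g, against 0 to 2.14 CPM in the 6 stage libraries (log2 difference 3.00 ± 0.64 SE, adjusted p = 0.0800). PRRX1, which marks limb mesenchyme at large, had 319 and 308 CPM in HH24g, against 172 to 262 CPM in the 6 stage libraries (log2 difference 0.58 ± 0.12 SE, adjusted p = 0.0673).

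Of the connective tissue matrix list, 1 gene was called. COL12A1, a collagen of tendon and other dense connective tissue that sits on the surface of fibrils, had 213 and 229 CPM in the HH24g libraries, against 72.8, 85.8 and 79.2 CPM in HH24 and 139, 141 and 165 CPM in HH27. HH27 was itself above HH24 (0.96, adjusted p = 0.0138), and the grafts were above HH27, although the grafted cells had the age of HH24. The log2 difference was 1.04 ± 0.10 (SE, adjusted p = 0.00618), made of 1.52 ± 0.14 against HH24 (adjusted p = 0.0234) and 0.56 ± 0.10 against HH27 (adjusted p = 0.0169). COL12A1 missed the limit of 2-fold when HH24g replicate 2 was left out. COL12A1 had log2 fold changes of 0.99 to 1.09 over the 8 fits, with adjusted p up to 0.0495.

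MXRA5, a matrix protein with leucine-rich repeats, and FAP, the fibroblast activation protein, a serine protease of the cell surface, are on no list, stood between the ends of the fold ranking and are named because their values were seen to be steady. MXRA5 had 95.3 and 88.6 CPM in the HH24g libraries, against 30, 31.2 and 35.2 CPM in HH24 and 36.8, 35.9 and 41.3 CPM in HH27. The 3 groups were tight, the grafts lay 2.15-fold above the highest stage library, and the log2 difference was 1.35 ± 0.12 (SE, adjusted p = 0.00618). It was called in all 8 fits that left out 1 library (log2 fold change 1.30 to 1.41). FAP had 58.9 and 66.6 CPM in the HH24g libraries, against 22.5, 23.4 and 20.5 CPM in HH24 and 24.5, 29.1 and 31.7 CPM in HH27, with a log2 difference of 1.33 ± 0.15 (SE, adjusted p = 0.0100), and its call was lost when HH24g replicate 2 or HH24 replicate 1 or 3 was left out. FAP had log2 fold changes of 1.23 to 1.41 over the 8 fits, with adjusted p up to 0.0701.

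The list of connective tissue matrix genes, 21 tested, held 6 genes above the stage range and 0 below it, with COL12A1 called; 5.62% of all genes were above the range. The median log2 difference was 0.13, and 13 of the 21 were positive. Among those with negative values, all within the range and none called, were the proteoglycan LUM (log2 difference -0.55 ± 0.12 SE, adjusted p = 0.0800), the collagen VI chains COL6A1 (log2 difference -1.19 ± 0.70 SE, adjusted p = 0.510) and COL6A2 (log2 difference -0.99 ± 0.25 SE, adjusted p = 0.130), and fibronectin, FN1 (log2 difference -0.27 ± 0.07 SE, adjusted p = 0.129). DCN, the small proteoglycan decorin, had 229 and 257 CPM in HH24g, against 85.8 to 201 CPM in the 6 stage libraries, a log2 difference of 0.66 ± 0.11 (SE, adjusted p = 0.0480) that passed the p threshold but was under 2-fold. FBN1, a fibrillin of microfibrils, had 109.8 and 122 CPM in HH24g, against 42.7 to 92.9 CPM in the 6 stage libraries (log2 difference 0.60 ± 0.19 SE, adjusted p = 0.220). FBN2, its paralogue, had 227 and 224 CPM in HH24g, against 134 to 202 CPM in the 6 stage libraries (log2 difference 0.60 ± 0.15 SE, adjusted p = 0.124), and neither gene passed the test. COL14A1 and FBLN2 were also outside the range without passing it. PDGFRA, the receptor that marks fibroblast progenitors, had 215 and 235 CPM in the HH24g libraries, against 103, 101 and 108 CPM in HH24 and 132, 113 and 165 CPM in HH27. The grafts did not overlap either stage, and the log2 difference was 0.89 ± 0.13 (SE, adjusted p = 0.0253), under the fold limit.

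Secreted factors and receptors were also among the called higher genes. ANGPTL1, an angiopoietin-like secreted protein, had 72.4 and 62 CPM in the HH24g libraries, against 10.7, 23.4 and 7.82 CPM in HH24 and 10.3, 18.5 and 17.9 CPM in HH27. Both grafts were at least 2.65-fold above every stage library, whereas HH24 and HH27 overlapped each other. ANGPTL1 differed from the stage mean by 2.44 ± 0.24 (SE, adjusted p = 0.00647) on the log2 scale, with 2.74 ± 0.40 against HH24 (adjusted p = 0.0737) and 2.14 ± 0.22 against HH27 (adjusted p = 0.00218). ANGPTL1 was called in all 8 fits that left out 1 library (log2 fold change 2.29 to 2.60), and also by edgeR and DESeq2.

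GFRA1, the co-receptor for glial cell line-derived neurotrophic factor, had 25 and 21.4 CPM in the HH24g libraries, against 6.42, 0 and 10.8 CPM in HH24 and 3.83, 2.91 and 2.6 CPM in HH27. The grafts stood above HH24 replicate 3 by 1.99-fold and farther above HH27, with a log2 difference of 2.13 ± 0.28 (SE, adjusted p = 0.0172). Its call was lost when HH24g replicate 1 or 2 or HH24 replicate 1 or 3 was left out. GFRA1 had log2 fold changes of 1.99 to 2.34 over the 8 fits, with adjusted p up to 0.107. NGFR, the low-affinity neurotrophin receptor, had 14 and 17.7 CPM in the HH24g libraries, against 4.28, 7.8 and 3.91 CPM in HH24 and 5.75, 3.88 and 6.23 CPM in HH27. The stage libraries overlapped, and the difference of 1.61 ± 0.28 (SE, adjusted p = 0.0490) was called in 0 of the 8 fits that left out 1 library (log2 fold change 1.41 to 1.73, adjusted p up to 0.213). PRSS12, the secreted serine protease neurotrypsin, had 41.9 and 39.1 CPM in HH24g, against 10.8 to 19.4 CPM in the 6 stage libraries (log2 difference 1.63 ± 0.19 SE, adjusted p = 0.0100), and was not called when HH24g replicate 1 or 2 or HH24 replicate 1 or 3 was left out. PRSS12 had log2 fold changes of 1.50 to 1.72 over the 8 fits, with adjusted p up to 0.0638.

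SMOC1, a secreted calcium-binding protein that antagonises Bmp signalling in frog embryos, had 69.9 and 92.9 CPM in the HH24g libraries, against 41.7, 31.2 and 39.1 CPM in HH24 and 36.8, 16.5 and 23.4 CPM in HH27. Grafts lay above HH24, and HH24 lay above HH27 in most libraries. The log2 difference was 1.33 ± 0.22 (SE, adjusted p = 0.0438), and the call was lost when HH24g replicate 1 or 2, HH24 replicate 1, 2 or 3 or HH27 replicate 2 or 3 was left out. SMOC1 had log2 fold changes of 1.09 to 1.50 over the 8 fits, with adjusted p up to 0.212. LRIG3, a membrane protein with leucine-rich repeats, had 202 and 214 CPM in HH24g, against 54.6 to 109.5 CPM in the 6 stage libraries (log2 difference 1.12 ± 0.11 SE, adjusted p = 0.00647) and was called in all but the fit without HH24g replicate 2 (log2 fold change 1.07 to 1.16, adjusted p up to 0.0541).

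Intracellular proteins that bear on signalling were also among the called higher genes. DACT1, which binds Dishevelled and modulates Wnt signalling, had 58.4 and 49.2 CPM in the HH24g libraries, against 11.8, 7.8 and 22.5 CPM in HH24 and 10.3, 6.8 and 15.1 CPM in HH27. The grafts were 2.19-fold above the highest stage library, with a log2 difference of 1.89 ± 0.24 (SE, adjusted p = 0.0133), and the call was lost when HH24g replicate 1 or 2 or HH24 replicate 1 was left out. DACT1 had log2 fold changes of 1.71 to 2.12 over the 8 fits, with adjusted p up to 0.0928. CRABP1, a cytoplasmic protein that binds retinoic acid, had 106 and 88.3 CPM in the HH24g libraries, against 44.9, 23.4 and 40.1 CPM in HH24 and 29.1, 9.71 and 23.1 CPM in HH27. It was highest in grafts, intermediate in HH24 and lowest in HH27, with a log2 difference of 1.64 ± 0.22 (SE, adjusted p = 0.0179), and was not called when HH24g replicate 1 or 2 or HH24 replicate 1 or 3 was left out. CRABP1 had log2 fold changes of 1.52 to 1.79 over the 8 fits, with adjusted p up to 0.0988.

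RASL11B, a small GTPase of the Ras family, had 93.8 and 99.6 CPM in the HH24g libraries, against 39.6, 31.2 and 35.2 CPM in HH24 and 43.7, 44.7 and 51.4 CPM in HH27. Its 3 groups were tight and separate, and the log2 difference of 1.20 ± 0.12 (SE, adjusted p = 0.00618) was called in all 8 fits that left out 1 library (log2 fold change 1.16 to 1.25). CLMN, calmin, a membrane protein with an actin-binding domain, had 169 and 152 CPM in HH24g, against 39.9 to 74.8 CPM in the 6 stage libraries (log2 difference 1.57 ± 0.16 SE, adjusted p = 0.00676) and lost its call when HH24 replicate 1 was left out. CLMN had log2 fold changes of 1.49 to 1.65 over the 8 fits, with adjusted p up to 0.0513. The gene listed as C9ORF58 had 115 and 99.3 CPM in HH24g, against 7.8 to 37.4 CPM in the 6 stage libraries (log2 difference 1.93 ± 0.20 SE, adjusted p = 0.00676) and lost its call when HH24 replicate 1 was left out. C9ORF58 had log2 fold changes of 1.84 to 2.07 over the 8 fits, with adjusted p up to 0.0635.

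SYTL2, a synaptotagmin-like protein that binds Rab27 on vesicles, had 56.9 and 62 CPM in HH24g, against 9.58 to 31.2 CPM in the 6 stage libraries (log2 difference 2.06 ± 0.23 SE, adjusted p = 0.00992), and its call was lost when HH24g replicate 2 was left out. SYTL2 had log2 fold changes of 1.70 to 2.32 over the 8 fits, with adjusted p up to 0.0577. For DCLK1, a kinase that binds microtubules, the levels were 232 and 265 CPM in HH24g, against 38.8 to 140.3 CPM in the 6 stage libraries (log2 difference 1.58 ± 0.25 SE, adjusted p = 0.0342), and the call was lost when HH24g replicate 1 or 2, HH24 replicate 1, 2 or 3 or HH27 replicate 1 was left out. DCLK1 had log2 fold changes of 1.47 to 1.80 over the 8 fits, with adjusted p up to 0.191. PDZRN3, a ubiquitin ligase with PDZ domains, had 34.4 and 38.8 CPM in HH24g, against 11.2 to 31.2 CPM in the 6 stage libraries (log2 difference 1.21 ± 0.14 SE, adjusted p = 0.0100). Its HH24 level was above that of HH27, so grafts were 0.73 above HH24 and 1.69 above HH27 on the log2 scale. The call of PDZRN3 was lost when HH24g replicate 2 or HH24 replicate 1 or 3 was left out. PDZRN3 had log2 fold changes of 1.11 to 1.28 over the 8 fits, with adjusted p up to 0.0770. All of these genes kept the higher sign in each fit, which the range rule made all but certain.

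The rule admits genes at its edge. NOL8, a nucleolar protein, had 78.9 and 88.6 CPM in the HH24g libraries, against 0, 15.6 and 5.87 CPM in HH24 and 72.8, 76.7 and 70.6 CPM in HH27. Its grafts were 1.03-fold above the highest HH27 library, and the difference from HH27 was 0.21 ± 0.15 (adjusted p = 0.541), against 5.08 from HH24, so NOL8 met the rule with grafts close to HH27. The log2 difference was 2.64 ± 0.45 (SE, adjusted p = 0.0460), and the call was lost when HH24g replicate 1 or 2, HH24 replicate 2 or 3 or HH27 replicate 1, 2 or 3 was left out. NOL8 had log2 fold changes of 1.91 to 3.10 over the 8 fits, with adjusted p up to 0.148. SLC14A2, a urea transporter, had 17.5 and 20.2 CPM in the HH24g libraries, against 3.21, 0 and 0 CPM in HH24 and 1.53, 1.94 and 3.38 CPM in HH27, on 3, 0 and 0 reads in HH24. Its difference of 3.20 ± 0.54 (SE, adjusted p = 0.0460) was called in 0 of the 8 fits that left out 1 library (log2 fold change 2.60 to 3.44, adjusted p up to 0.157).

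Just outside the rule were CARD19 and HOXD8, the 2 called genes that did not meet it, named here because of their values. CARD19 had 97.3 and 81.9 CPM in the HH24g libraries, against 62.1, 156 and 45 CPM in HH24 and 27.2, 39.8 and 30.9 CPM in HH27, where the shallow HH24 replicate 2 alone exceeded the grafts (log2 difference 1.09 ± 0.19 SE, adjusted p = 0.0492). It was called in 1 of the 8 fits that left out 1 library, the one without HH24 replicate 2. HOXD8, a more anterior HOXD gene, had 23.5 and 20.8 CPM in the HH24g libraries, against 15, 23.4 and 19.6 CPM in HH24 and 3.83, 3.88 and 3.64 CPM in HH27, so that 1 graft lay below HH24 replicate 2 on 3 reads (log2 difference 1.39 ± 0.19 SE, adjusted p = 0.0222). It was also called in 1 of those 8 fits, the one without HH27 replicate 2. Over the 23 called higher genes the lower graft stood 1.03 to 12.8-fold above the highest stage library (median 1.85), and over the 9 lower genes the higher graft stood 1.29 to 2.49-fold below the lowest stage library (median 1.87). A space of at least 2-fold was found in 8 higher and 2 lower called genes, and in 19 higher and 6 lower genes of all 804. Over all 804, this space had a median of 1.08-fold for higher and 1.07-fold for lower genes, and the median log2 differences were 0.50 and -0.44.

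The 9 called lower genes included 3 transcription factors, HOXD12, EVX1 and TFAP2C. HOXD12, a 5′ Hox gene of the posterior distal limb, had 51.4 and 40.3 CPM in the HH24g libraries, against 104, 125 and 97.8 CPM in HH24 and 173, 221 and 195 CPM in HH27. HH27 was above HH24 (0.90, adjusted p = 0.0225), and the grafts were below both stages. The log2 difference was -1.65 ± 0.15 (SE, adjusted p = 0.00618), with -1.20 ± 0.18 against HH24 (adjusted p = 0.0737) and -2.10 ± 0.15 against HH27 (adjusted p = 0.00138). HOXD12 was called in all 8 fits that left out 1 library (log2 fold change -1.80 to -1.44), and by edgeR and DESeq2.

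EVX1, an even-skipped homeobox gene, had 6.49 and 7.03 CPM in the HH24g libraries, against 33.2, 39 and 21.5 CPM in HH24 and 16.9, 14.6 and 15.6 CPM in HH27. Both grafts were 2.07-fold or more below the lowest stage library, on 13 and 23 reads, with a log2 difference of -1.58 ± 0.27 (SE, adjusted p = 0.0460). The call held in the fit without HH24 replicate 3 and was lost when HH24g replicate 1 or 2, HH24 replicate 1 or 2 or HH27 replicate 1, 2 or 3 was left out. EVX1 had log2 fold changes of -1.76 to -1.47 over the 8 fits, with adjusted p up to 0.263. TFAP2C, an AP-2 transcription factor, had 50.4 and 44.9 CPM in the HH24g libraries, against 99.5, 140.3 and 77.3 CPM in HH24 and 148, 155 and 131 CPM in HH27. Its HH27 libraries were highest in 2 of 3 cases and grafts lowest, with a log2 difference of -1.26 ± 0.15 (SE, adjusted p = 0.0104), which was not called when HH24g replicate 1 or 2 or HH24 replicate 1 was left out. TFAP2C had log2 fold changes of -1.38 to -1.16 over the 8 fits, with adjusted p up to 0.133.

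Of 7 posterior wing bud genes tested, 3 were below the stage range in both grafts (HOXD12, HAND2 and HOXD11) and 1 was above it (GREM1), with a median log2 difference of -0.76; 3.26% of all genes were below the range. HAND2, which positions the polarising region of the posterior limb, had 35.4 and 27.2 CPM in the HH24g libraries, against 113, 117 and 68.5 CPM in HH24 and 101, 98.1 and 68.3 CPM in HH27. Its log2 difference of -1.52 ± 0.27 narrowly missed the threshold (adjusted p = 0.0502). HAND2 was called by DESeq2 (adjusted p = 6.04e-06), with at least 10 counts required in every library (adjusted p = 0.0118) and without haemoglobin, mitochondrial and rRNA genes (adjusted p = 0.0490). HAND2 was not called by edgeR (adjusted p = 0.0637), with no filter beyond 1 read (adjusted p = 0.0658), with sample quality weights (adjusted p = 0.0505), with DESeq2 size factors in voom (adjusted p = 0.0504) or with unmatched transcripts added (adjusted p = 0.142). Without 1 library it was called in 2 of 8 fits (adjusted p 0.0165 to 0.288). HOXD11 had 53.4 and 46.7 CPM in HH24g, against 72.4 to 140.3 CPM in the 6 stage libraries (log2 difference -0.76 ± 0.16 SE, adjusted p = 0.0747). GREM1, the Bmp antagonist of the posterior mesenchyme, had 15.5 and 16.2 CPM in HH24g, against 0 to 9.78 CPM in the 6 stage libraries (log2 difference 1.33 ± 0.29 SE, adjusted p = 0.0822), and neither passed. HOXD13, within the range, had 31.4 and 62.9 CPM in HH24g, against 146, 195 and 50.9 CPM in HH24 and 391, 422 and 439 CPM in HH27. Its log2 difference of -2.04 ± 0.38 (SE, adjusted p = 0.0541) was the largest of the posterior list. HOXD13 was not called by limma voom and was called by DESeq2. Of the anterior wing bud genes, 3 were tested and 0 were outside the range, with a median of 1.21. This median was 0.29 against HH24 and 1.74 against HH27, so the distance from HH27 carried most of it. HOXD8, given above, was called, HOXA5 (log2 difference 1.21 ± 1.18 SE, adjusted p = 0.708) was not, and neither was GLI3 (log2 difference -0.35 ± 0.25 SE, adjusted p = 0.583).

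Among 15 distal mesenchyme regulators tested, LHX2, HOXA13 and TFAP2C were below the stage range and ETV1 above it, with a median log2 difference of -0.49. Over all genes, 3.26% were below the range and 5.62% above it. LHX2, a LIM homeobox gene that answers to Fgf, had 288 and 269.8 CPM in the HH24g libraries, against 349.9, 312 and 369.7 CPM in HH24 and 515, 495 and 474 CPM in HH27. The difference was -0.59 ± 0.07 (SE, adjusted p = 0.0116), under the fold limit, and the grafts were closer to HH24 than to HH27. HOXA13 had 7.99 and 15.3 CPM in the HH24g libraries, against 42.8, 39 and 22.5 CPM in HH24 and 28.4, 22.3 and 34 CPM in HH27. Both grafts were below all stage libraries, but they differed from each other, and the log2 difference of -1.34 ± 0.34 (SE, adjusted p = 0.126) did not pass in limma voom (adjusted p = 0.0272 with DESeq2). DESeq2 also called EVX2 and TFAP2B, which limma voom did not (log2 differences -1.84 ± 0.46 and -1.49 ± 0.30 SE, adjusted p = 0.126 and 0.0708). In both genes the grafts lay among the HH24 libraries and far below HH27, so they were within the range. Of 8 proximal identity genes tested, PBX3 alone was outside the range, and the list median was -0.06.

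**Figure D3:**
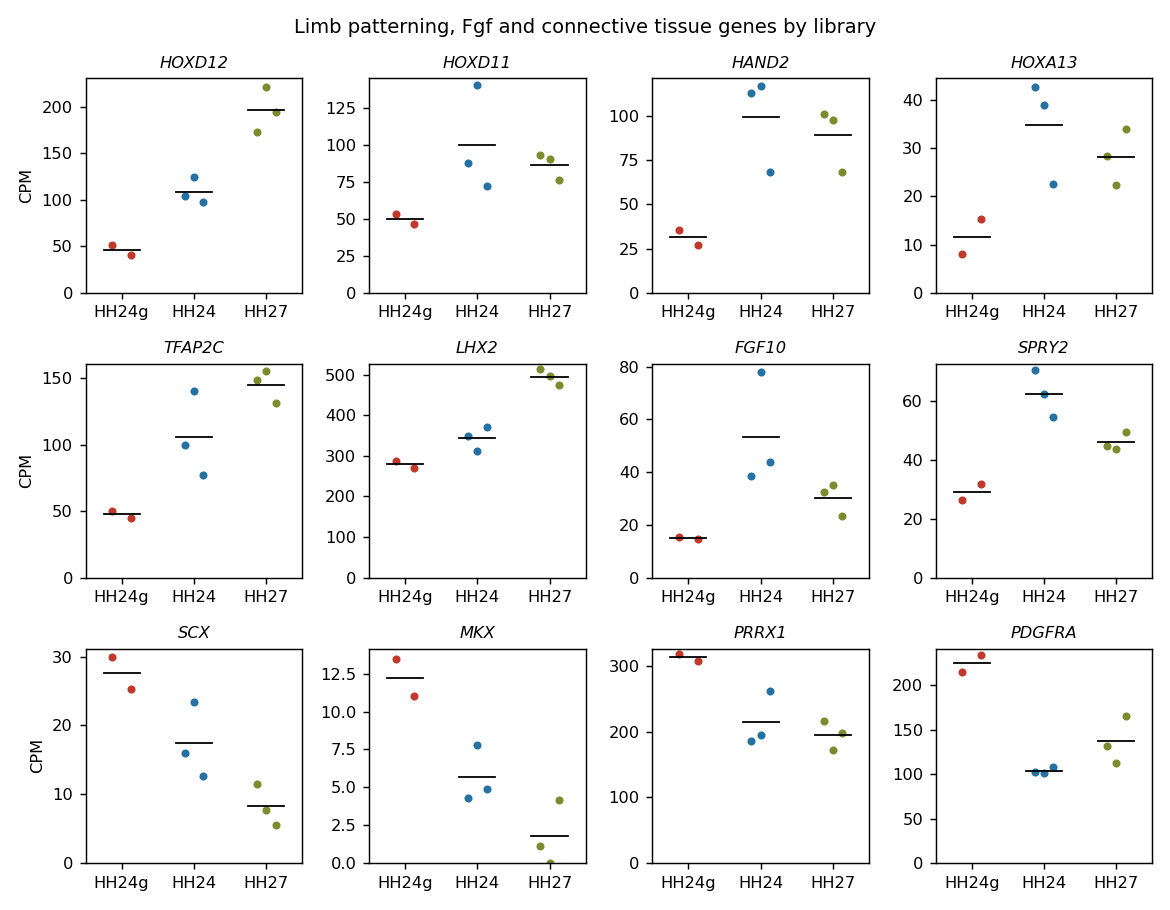
CPM in each library (y axis, from 0) for 12 genes of limb patterning, Fgf signalling and connective tissue, in HH24g (red, 2 libraries), HH24 (blue, 3) and HH27 (green, 3), with the mean of each group as a bar. All 12 were picked from list genes outside the stage range, so their place outside it is no result. Both grafts lie below all 6 stage libraries in the upper 8 panels, down to SPRY2, and above them in SCX, MKX, PRRX1 and PDGFRA. Genes of the patterning and Fgf lists that lay above the range, such as GREM1, ETV1 and FGFR3, are not shown.

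Of 16 genes tested on the list of Fgf feedback and ligands, FGF10, SPRY2 and DUSP6 were below the stage range, FGFR3 was above it, and the list median was -0.26. Over all genes, 3.26% were below the range and 5.62% above it. Differences were positive in 5 of the 16. FGF18 had the largest of these (log2 difference 1.39 ± 0.35 SE, adjusted p = 0.126). ETV4 followed (log2 difference 0.85 ± 0.52 SE, adjusted p = 0.529), and both were within the range. FGFR3 had a log2 difference of 0.49 ± 0.30 (SE, adjusted p = 0.532). SPRY2, a feedback inhibitor of Fgf receptors, had 26.5 and 31.8 CPM in the HH24g libraries, against 70.6, 62.4 and 54.8 CPM in HH24 and 44.8, 43.7 and 49.6 CPM in HH27. The grafts were 1.38-fold below the lowest stage library, with a log2 difference of -0.87 ± 0.14 (SE, adjusted p = 0.0456), under the fold limit. FGF10, the mesenchymal ligand for the ridge, had 15.5 and 14.7 CPM in the HH24g libraries, against 38.5, 78 and 44 CPM in HH24 and 32.6, 35 and 23.4 CPM in HH27, a difference of -1.20 ± 0.24 (SE, adjusted p = 0.0631) that did not pass in limma voom and did in DESeq2 (adjusted p = 0.00565). DUSP6, a phosphatase induced by Fgf through ERK, had 235 and 209 CPM in HH24g, against 249 to 353 CPM in the 6 stage libraries (log2 difference -0.40 ± 0.10 SE, adjusted p = 0.110). EGR1, an immediate early gene, was also below the range, at 5.49 and 5.5 CPM in HH24g, against 9.63 to 20.4 CPM in the 6 stage libraries (log2 difference -1.34 ± 0.25 SE, adjusted p = 0.0563). FGF8 had 4.99 and 5.19 CPM in HH24g, against 15, 0 and 16.6 CPM in HH24 and 15.3, 8.74 and 12.5 CPM in HH27. It was within the range only through the 0 of the shallow HH24 replicate 2 (log2 difference -1.42 ± 0.34 SE, adjusted p = 0.114).

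For this list and the next, the shares over all genes were 3.26% below the stage range and 5.62% above it. Counts of unadjusted p and of DESeq2 calls on any list stand beside those over all 9062 genes. Of these, 1214 had an unadjusted p under 0.05 in limma voom, and DESeq2 called 100. The Wnt pathway list had a median log2 difference of 0.05 over 15 genes tested. The ligands WNT5A and WNT11, the feedback gene AXIN2 and the transcription factor TCF7 were below the stage range and FRZB, a secreted Wnt inhibitor, was above it. WNT11 had 8.98 and 12.5 CPM in HH24g, against 15.6 to 28 CPM in the 6 stage libraries (log2 difference -1.13 ± 0.22 SE, adjusted p = 0.0631) and TCF7 19 and 15.9 CPM in HH24g, against 25.3 to 62.4 CPM in the 6 stage libraries (log2 difference -1.18 ± 0.28 SE, adjusted p = 0.113). FRZB had 109.8 and 136 CPM in HH24g, against 51.4 to 94 CPM in the 6 stage libraries, with a log2 difference of 0.91 ± 0.16 (SE, adjusted p = 0.0480), the only member of the list to pass the p threshold, and under 2-fold; DESeq2 called WNT11 and TCF7. Of 17 Bmp and Tgf-beta genes, BMPR1A, TGFB2, TGFB3, TGFBR2 and TGFBI were above the range, 0 were below it and 0 were called by limma voom or edgeR, although 8 had an unadjusted p under 0.05. BMPR1A lay at the edge, with 172.7 and 178.4 CPM in HH24g, against 168.0 CPM in HH27 replicate 2. The list median was -0.12, with 6 of 17 genes positive. DESeq2 called TGFB2 and BAMBI, whose limma voom differences had opposite signs. BAMBI, a pseudoreceptor that inhibits the pathway, had 43.4 and 53.5 CPM in HH24g, against 57.8, 46.8 and 58.7 CPM in HH24 and 173, 238 and 163 CPM in HH27. Its log2 difference was -1.07 ± 0.19 (SE, adjusted p = 0.0502), with -0.25 against HH24 and -1.88 against HH27. The ligands BMP7 (log2 difference -0.76 ± 0.14 SE, adjusted p = 0.0502) and BMP4 (log2 difference -0.82 ± 0.19 SE, adjusted p = 0.101) also had negative values within the range. For BMP7 the difference was -0.21 against HH24 and -1.30 against HH27, and for BMP4 -1.02 and -0.62. TGFB2, a ligand of the pathway, had 13 and 14.4 CPM in HH24g, against 0 to 6.8 CPM in the 6 stage libraries (log2 difference 1.78 ± 0.37 SE, adjusted p = 0.0774), and TGFBI, a matrix protein that Tgf-beta induces, 743 and 649 CPM in HH24g, against 343 to 535 CPM in the 6 stage libraries (log2 difference 0.56 ± 0.10 SE, adjusted p = 0.0514).

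The lowest called gene of all was ITGA8, an integrin subunit that pairs with beta 1 and is needed for kidney development in the mouse. ITGA8 had 15 and 20.2 CPM in the HH24g libraries, against 50.3, 70.2 and 57.7 CPM in HH24 and 137, 109 and 118 CPM in HH27. HH27 was above HH24 (1.15, adjusted p = 0.0147), and the grafts were 2.49-fold or more below every stage library. ITGA8 differed from the stage mean by -2.17 ± 0.20 (SE, adjusted p = 0.00618) on the log2 scale, with -1.60 ± 0.23 against HH24 (adjusted p = 0.0737) and -2.75 ± 0.19 against HH27 (adjusted p = 0.00138). ITGA8 was called in all 8 fits that left out 1 library (log2 fold change -2.43 to -2.02), and by edgeR and DESeq2.

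CPXM2, a secreted carboxypeptidase-like protein, showed the same order of groups, with 27.5 and 34.2 CPM in the HH24g libraries, against 76, 62.4 and 53.8 CPM in HH24 and 125, 141 and 112 CPM in HH27. Its log2 difference was -1.49 ± 0.18 (SE, adjusted p = 0.0100), and the call was lost when HH24g replicate 1 or 2 or HH24 replicate 1 was left out. CPXM2 had log2 fold changes of -1.68 to -1.37 over the 8 fits, with adjusted p up to 0.0675. VEGFD, a ligand that promotes lymphatic growth, had 109 and 98.7 CPM in the HH24g libraries, against 255, 234 and 207 CPM in HH24 and 304, 298 and 208 CPM in HH27. The stage libraries overlapped, the log2 difference was -1.24 ± 0.18 (SE, adjusted p = 0.0254), and VEGFD was not called when HH24g replicate 1 or 2 or HH24 replicate 1, 2 or 3 was left out. VEGFD had log2 fold changes of -1.35 to -1.16 over the 8 fits, with adjusted p up to 0.186.

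TRIL, a membrane protein that acts with Toll-like receptor 4, had 265 and 230.0 CPM in the HH24g libraries, against 603, 476 and 428 CPM in HH24 and 527, 498 and 517 CPM in HH27. The stages overlapped, the grafts were 1.62-fold or more below them, and the log2 difference was -1.06 ± 0.12 (SE, adjusted p = 0.00992); the call was lost when HH24g replicate 2 or HH24 replicate 1 was left out. TRIL had log2 fold changes of -1.15 to -0.94 over the 8 fits, with adjusted p up to 0.0979. TNFRSF14, a receptor of the tumour necrosis factor family, had 31.9 and 36.4 CPM in HH24g, against 46.8 to 89.3 CPM in the 6 stage libraries (log2 difference -1.09 ± 0.17 SE, adjusted p = 0.0316) and was not called when HH24g replicate 1 or 2, HH24 replicate 1, 2 or 3 or HH27 replicate 2 was left out. TNFRSF14 had log2 fold changes of -1.19 to -1.01 over the 8 fits, with adjusted p up to 0.146. GRK5, a kinase that desensitises G protein-coupled receptors, had 38.4 and 35.1 CPM in HH24g, against 71.9 to 106 CPM in the 6 stage libraries (log2 difference -1.23 ± 0.19 SE, adjusted p = 0.0342) and was not called when HH24g replicate 1 or 2 or HH24 replicate 1, 2 or 3 was left out. GRK5 had log2 fold changes of -1.34 to -1.15 over the 8 fits, with adjusted p up to 0.216.

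Genes of cell stress and injury were looked at because the grafts had been operated on. In the 5 lists of immediate early, heat shock, p53 and apoptosis, hypoxia and glycolysis, and interferon genes, 42 genes were tested: 0 were above the stage range, 1 was below it (EGR1) and 0 were called by limma voom or edgeR, where 5.62% and 3.26% of all genes were above and below. In the order given, 4 of 15, 13 of 16, 11 of 16, 9 of 16 and 5 of 16 listed genes were tested. The others were not matched or did not pass the filter, so these lists were assessed only in part. Their median log2 difference was 0.01, with values ranging over -1.34 to 0.76, and 2 had an unadjusted p under 0.05 (EGR1 and BTG2), of which DESeq2 called EGR1. Over all 9062 genes, 1214 had an unadjusted p under 0.05 in limma voom. Of 19 cell cycle genes, MCM2 and MCM5, helicase subunits that license replication, were below the range, and CDKN1C, a cyclin-dependent kinase inhibitor, was above it. CDKN1C lay at the edge, with 40.4 and 42.8 CPM in HH24g, against 37.2 to 39.0 CPM in HH24 and 12.6 to 18.4 CPM in HH27. By limma voom, edgeR or DESeq2 0 cell cycle genes were called, and 5 had an unadjusted p under 0.05. Of 18 axon guidance genes, ROBO1 was above the range and EFNB1, UNC5B and SEMA3D below it, with a list median of 0.05. EFNB1, a membrane ligand for Eph receptors, was the member of the axon guidance list with an adjusted p under 0.05, with 154 and 150.3 CPM in HH24g against 177 to 290.4 CPM in the stage libraries (-0.59 ± 0.07, adjusted p = 0.0123). Of 8 Shh pathway genes, GAS1 was above the range and SUFU below it, with a median of -0.22. SUFU lay at the edge, with 11.48 and 14.97 CPM in HH24g, against 14.98 CPM in HH24 replicate 1. BOC, within the range, had an adjusted p of 0.0456 and was under 2-fold (log2 difference 0.83). Its grafts lay among the HH24 libraries (log2 difference 0.05 against HH24) and above HH27 (1.62). Of 6 cartilage genes, MATN4 was above the range, and the median was 0.02. This median hides opposite values within the range. SOX5 had a positive difference (log2 difference 1.29 ± 0.43 SE, adjusted p = 0.244) and SOX9 a negative one (log2 difference -1.43 ± 0.54 SE, adjusted p = 0.301). With MATN4, 3 of the 6 had an unadjusted p under 0.05 in limma voom, and 0 were called. The list of Notch genes (7 tested) had 0 genes outside the range and that of cytosolic ribosome genes (23 tested) 1, RPLP0. Of the Notch genes, 3 had an unadjusted p under 0.05 in limma voom: DLL4 and DNER with positive differences and JAG1 with a negative one. DESeq2 called DNER, which limma voom did not (log2 difference 1.46 ± 0.30 SE, adjusted p = 0.0708). In DNER the grafts lay among the HH24 libraries and above HH27.

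**Figure D4:**
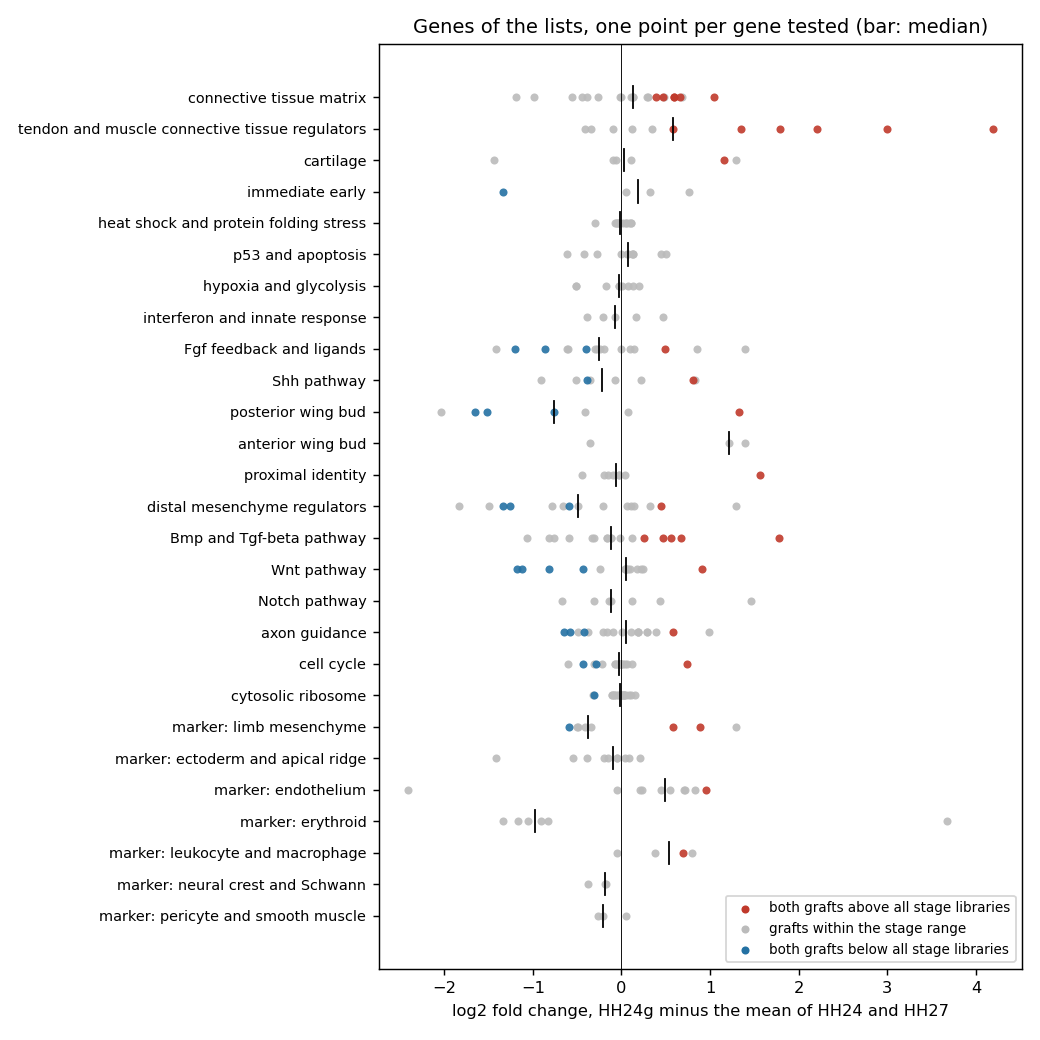
Log2 fold change of HH24g minus the mean of HH24 and HH27 (x axis) for every gene tested on 27 lists (rows), with the list median as a bar; red and blue points are genes with both grafts above or below all 6 stage libraries, and grey points lie within the stage range. The tendon and muscle connective tissue regulators spread to the right, the posterior wing bud genes to the left, and the heat shock genes lie close to 0.

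Markers of cell types were summed in each library to describe composition. Limb mesenchyme markers (8 genes, all detected in grafts) summed to 1971 and 2033 CPM in HH24g, against 1559 to 2066 CPM in HH24 and 1403 to 1708 CPM in HH27. LHX9 made up much of the sum, with 793 and 783 CPM in HH24g, against 532 to 827 CPM in HH24 and 56.3 to 254 CPM in HH27. All 8 had an unadjusted p under 0.05 and 0 were called; LHX9, PDGFRA and PRRX1 had positive differences (0.58 to 1.29 on the log2 scale), and LHX2, TBX5, MSX1, TWIST1 and PRRX2 negative ones (-0.59 to -0.34). Ectoderm and ridge markers (13 genes) summed to 428 and 493 CPM in HH24g, against 400.02 to 491 CPM in HH24 and 485 to 607 CPM in HH27, and 0 of the 10 tested were outside the range. Of these, FGF8 and CDH1 had an unadjusted p under 0.05, both with negative differences (-1.42 and -0.55 on the log2 scale). FGF8, given above, stayed within the range only through the shallow HH24 replicate 2. Myogenic markers (9 genes) summed to 0.611 and 4.99 CPM in HH24g, against 0 to 4.89 CPM in HH24 and 1.94 to 2.30 CPM in HH27, with PAX3, MYOD1 and MYOG at 0 in both grafts.

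Endothelial markers (15 genes) summed to 258 and 286 CPM in HH24g, against 186 to 265 CPM in HH24 and 211 to 233 CPM in HH27. Of the 10 tested, CLDN5 was above the range, where 5.62% of all genes were. Their median log2 difference was 0.49, beside 0.01 for all genes, and 8 of 10 were positive. CDH5, TIE1 and CLDN5 had an unadjusted p under 0.05 in limma voom, all with positive differences, and 0 were called. The sum for leukocyte and macrophage markers (11 genes) was 48.9 and 52.9 CPM in HH24g, against 28.9 to 39.0 CPM in HH24 and 29.1 to 40.2 CPM in HH27. PTPRC was above the range, and SPI1 and CYBB were at 0 in both grafts. Of the 4 tested, 3 had positive differences, with a median of 0.54. PTPRC and LAPTM5, both positive, had an unadjusted p under 0.05 in limma voom, and 0 were called. Both graft libraries were above all stage libraries in the leukocyte sum. The part of the endothelial and leukocyte values in the higher genes was not tested. Erythroid markers (9 genes) summed to 745 and 1407 CPM in HH24g, against 4046 to 4930 CPM in HH24 and 448 to 2278 CPM in HH27, and pericyte markers (7 genes) to 71.4 and 78.8 CPM in HH24g, against 65.3 to 121 CPM in HH24 and 57.3 to 84.7 CPM in HH27. Neural crest and Schwann cell markers (11 genes) summed to 42.9 and 55.3 CPM in HH24g, against 52.8 to 85.8 CPM in HH24 and 41.4 to 74.8 CPM in HH27, beside the higher NGFR and GFRA1.

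Chromosomal location was not used by the rule. Chromosomes 1 to 5 held 44.2% of the higher and 37.3% of the lower genes outside the range, against 45.2% of all genes tested. Of 449 genes tested on chromosome Z, 46 were above the stage range (10.2%, against 5.62% of all genes) and 8 below it (1.78%, against 3.26%), and 1 was called, SLC14A2. The median log2 difference of Z genes was 0.15, against 0.01 for all genes, with 0.09 against HH24 and 0.19 against HH27. Summed over the Z genes, levels were 33529 and 33814 CPM in HH24g, against 30117 to 33382 CPM in HH24 and 25624 to 31556 CPM in HH27. The 16 genes tested on chromosome W, which only female chicks carry, summed to 229 and 478 CPM in HH24g, against 170.1 to 521 CPM in HH24 and 534 to 1065 CPM in HH27, and 0 of them were outside the range. The sexes of the pooled embryos were not given, and their part in the Z values was not tested. Among the 32 called genes the median transcript length was 3075 nt, against 2966 nt for all genes.

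The calls differed in how far they rested on single libraries. The 5 genes called in all 8 fits that left out 1 library, and also by edgeR and DESeq2, were ANGPTL1, MXRA5 and RASL11B on the higher side and HOXD12 and ITGA8 on the lower side. All 32 genes kept their sign in each of these fits. The rule had placed both grafts on the same side of every stage library, so this says nothing about stability. EdgeR called 16 of the 32 and DESeq2 all 32. The number of calls over all genes was 17 without HH24g replicate 2 and 20 without HH24g replicate 1, 9 without HH24 replicate 1 and 21 without HH24 replicate 2, and 23 to 46 without any other library. The matrix of fits shows that calls were lost most often without HH24 replicate 1 or a graft library.

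**Figure D5:**
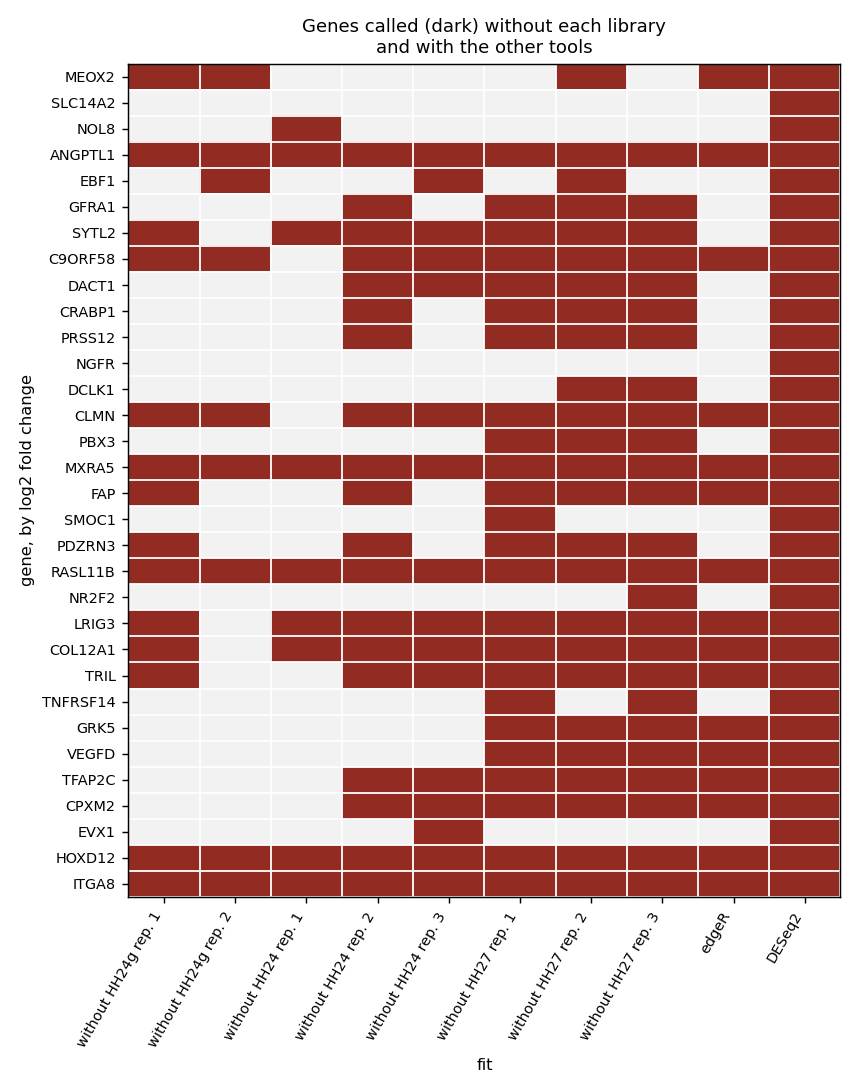
Calls of the 32 genes (rows, by log2 fold change) in 10 fits (columns): without each library in turn, HH24g first, and with edgeR or DESeq2 on all libraries. Dark cells are calls (adjusted p under 0.05 and more than 2-fold); ANGPTL1, MXRA5, RASL11B, HOXD12 and ITGA8 are dark throughout, and NGFR and SLC14A2 only with DESeq2.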

How the data were processed

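RNA-seq was made from total RNA after ribosomal depletion (stranded libraries) of distal wing mesenchyme. The authors deposited 1 transcript table per library with estimated counts, which share reads among similar transcripts. The submitters' processing notes name HISAT2 2.0.2, Salmon, limma and the build galGal4. Whether these tables are those behind the study's own lists is not given in the sources used here. The study made 3 replicates for each condition and left out 1 HH24 and 1 HH24g library after quality control. Which ones is not given in those sources. The data held 2 HH24g and 3 HH24 libraries, so an HH24 library that the study left out may be among those used here. All 8 libraries were used. Without the shallow HH24 replicate 2, 21 genes were called, 19 of the 32 called genes kept their call, and 1241 genes were outside the stage range.

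Of 57399 transcripts, 26660 (46.4%) matched a gene of a RefSeq table (GRCg7b, used only for names and chromosomes). Counts were summed over 14612 genes and rounded. Reads of unmatched transcripts, 32.4% to 90.8% of a library, stayed out. Genes passed edgeR's filterByExpr (minimum count 10, minimum total 15). Counts were TMM-scaled and fitted with limma voom over all 8 libraries, 1 mean per group, with the contrast HH24g minus the mean of HH24 and HH27. Genes were called at a Benjamini-Hochberg adjusted p under 0.05 and an absolute log2 fold change over 1. CPM values use TMM-adjusted library sizes. Levels were not divided by gene length, so they are not compared between genes. DESeq2 and edgeR's quasi-likelihood test, other filters and scaling, each stage on its own, a replicate block and leaving out each library were alternatives. Tables were joined with Python 3.11.15 and pandas 2.3.3, plots drawn with matplotlib 3.10.9, and models fitted in R 4.3.3 with DESeq2 1.42.0, limma 3.58.1 and edgeR 4.0.16.

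Of called genes outside the stage range, the text names 15 from either end of the ranking by log2 fold change, besides list genes outside that range. Others are said to have been chosen after their values were seen. The members, lists and rules were chosen with earlier results of these data known.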

Additional observations from a re-analysis of the deposited data

Results flagged for a closer look

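Reads on transcripts that matched no gene were used in no comparison of the report. When the unmatched transcripts were added as features, a step chosen after seeing the data, 8558 of them could be tested, 581 had both grafts outside the stage range, and 1 was called and above all stage libraries in both grafts. This predicted mRNA, XM_015276674.1 (1409 nt), had 32.0 and 31.5 CPM in HH24g, against 8.01, 13.4 and 6.84 CPM in HH24 and 1.26, 1.35 and 1.82 CPM in HH27, with a log2 fold change of 3.14 (adjusted p = 0.00878 in limma voom). The gene it belongs to was not identified here.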

How the results depend on the processing

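The direction of all 32 called genes held under every alternative in which they were tested, as the range rule all but ensures. The count of calls did not hold. Calls (34) numbered 18 with edgeR, 100 with DESeq2, 15 when at least 10 counts were required in every library (2635 genes left), 61 with no limit on fold change, 0 against each stage on its own and 13 with unmatched transcripts added, and ranged over 9 to 46 when 1 library was left out. Called genes outside the range on the higher side (23) numbered 10, 39, 3, 40, 0 and 10 under the same settings, and 7 to 27 without 1 library. On the lower side (9) they numbered 28 with DESeq2, 16 with no fold limit, 0 against each stage and 3 with unmatched transcripts added, and 2 to 11 without 1 library. The 804 genes outside the range became 287 with at least 10 counts in every library and 25 with a margin of 2-fold, and ranged over 910 to 1854 without 1 library; with 1 graft library left the rule is easier to meet. The share of calls that were higher was 73.5%, against 61.1% with edgeR, 58% with DESeq2, 33.3% with at least 10 counts in every library, 60% without HH27 replicate 1 and 47.8% without HH24 replicate 3. Same-numbered libraries did not deviate together (correlations of -0.03 to 0.04), and the numbers were not taken to pair samples. With 2 graft libraries, the deviation of each mirrors that of the other, so this check cannot decide on pairing of the grafts. The HH27 tissue came from the opposite wings of the hosts, so HH27 and grafts may share embryos, which the main fit did not take into account. With a replicate block there were 42 calls, and 22 of the 32 genes kept theirs. Beyond each gene's own counts, the low depth of HH24 replicate 2 limits every comparison with HH24. Where an alternative ended a call, the cause was not tested.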

Other observations

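Other genes stood well apart from both stages without passing the test; they are named because of their values. PTN, the heparin-binding growth factor pleiotrophin, had 67.9 and 95.6 CPM in HH24g, against 2.14, 0 and 4.89 CPM in HH24 and 4.98, 18.5 and 16.9 CPM in HH27 (adjusted p = 0.0789). AFF3, a nuclear protein of the AF4 family, had 18.0 and 30.2 CPM in HH24g, against 5.35, 0 and 6.85 CPM in HH24 and 1.53, 0 and 0.779 CPM in HH27 (adjusted p = 0.0502). ENPP2, the secreted enzyme autotaxin, had 26.5 and 22.0 CPM in HH24g, against 0 to 9.71 CPM in the 6 stage libraries (adjusted p = 0.0799).

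A few genes had reads on one side only. With counts rounded, 61 genes had at least 1 read in both grafts and 0 in every stage library, of which 2 had at least 10 reads in both grafts. TCAIM had 73 and 60 reads in HH24g and, after rounding, 0 in all 6 stage libraries, where its estimates were fractions of up to 0.0345 reads. Its graft level was 87.4-fold above a floor of 3 counts over the 6 libraries, yet it was not called (adjusted p = 0.0992). This floor does not allow for reads that the quantifier gave to a similar transcript, so the fold is not a firm bound. CA8 had 17 and 20 reads in HH24g and 0 in the stages, at least 23.3-fold higher. On the other side, 3 genes had 0 reads in both grafts and at least 1 in every stage library. This rule asks for reads in 6 libraries, among them the shallow HH24 replicate 2, and the first rule in 2 libraries. The counts of 61 and 3 are therefore not comparable. RUNX1, a transcription factor of blood formation, had 0 reads in HH24g after rounding, against 8, 2 and 6 in HH24 and 33, 6 and 38 in HH27. It was not called (adjusted p = 0.145), and its stage level was 17.1-fold above a floor of 3 counts over both grafts. KPTN had 0 reads in HH24g, against 3 to 12 in HH24 and 7 to 13 in HH27, with a stage level 17.5-fold above that floor. In the shallow HH24 replicate 2, 2 reads of RUNX1 stood for 15.6 CPM and 3 of KPTN for 23.4 CPM. They raised both stage levels, so neither fold is a lower bound. Each of TCAIM, CA8 and KPTN was counted from 1 transcript, and RUNX1 from 2. Reads that the authors' quantifier gave to an unmatched transcript of the same gene would not be in these values.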
